A study of Mus musculus with 4 samples.

Results

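The genes described here are 9 regulators of the G1 phase of the cell cycle: the D cyclins Ccnd1, Ccnd2 and Ccnd3, the kinases Cdk4 and Cdk6, and the Cdk inhibitors Cdkn1a, Cdkn1b, Cdkn2c and Cdkn2d. They were taken by symbol, and all 9 were found among the 31053 genes of both single-cell mRNA matrices. D cyclins are made in response to growth signals, bind Cdk4 or Cdk6, and start the phosphorylation of the retinoblastoma protein that releases E2F factors and lets a cell enter S phase. The INK4 inhibitors, here Cdkn2c and Cdkn2d, bind Cdk4 and Cdk6 and keep the cyclin out, while the CIP/KIP inhibitors, here Cdkn1a and Cdkn1b, bind cyclin and kinase together and act mainly on Cdk2. In the thymus, early progenitors divide many times before the pre-T-cell receptor checkpoint, and Ccnd3 is known as the D cyclin on which the proliferation of immature thymocytes depends.

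The series holds 2 pooled experiments, and each gave 1 mRNA library plus 1 library of hashtags, DNA tags carried by antibodies that label all cells of 1 culture, for 4 deposited samples. Mouse bone-marrow progenitors were grown on OP9-Dll1, a stromal line that presents the Notch ligand Dll1, with IL-7 and Flt3-ligand at 10 ng/ml each, and the labels call the cells Phase 1 (cKit high) DN T progenitors. For overexpression, cells of B6.Bcl2 transgenic mice aged 8 to 10 weeks received MSCV-Runx1-mCherry or MSCV-empty-mCherry on day 2, were harvested after 4 or 6 days of culture and were sorted as lineage-negative, mCherry+, CD45+ cells. For double knockout, cells of B6.Cas9;Bcl2 transgenic mice received E42-gRunx1-hNGFR and E42-gRunx3-mTurquoise, with 3 guide pairs per gene, or the corresponding E42-gControl vectors aimed at luciferase. These were harvested after 5 or 8 days and sorted as lineage-negative, mTurquoise+, hNGFR+, CD45+ cells. All cells, controls included, therefore carried a Bcl2 transgene, which blocks a route of cell death. The 8 tag columns of each experiment are named by tag sequence alone, so no hashtag could be tied to a vector, a guide or a day. Each hashtag is given as a culture of unknown condition, numbered from 1 to 8 by column, a number has no shared meaning across the experiments, and no test between conditions was made.

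After filtering, 8797 of 9332 cells of experiment 1 and 8335 of 10214 cells of experiment 2 had a clear hashtag, with 691 to 1291 and 855 to 1312 cells per hashtag. Summed depth was 14502385 to 38067298 unique molecular identifiers (UMIs, 1 per captured transcript) per hashtag in experiment 1 and 22272716 to 42684236 in experiment 2, and 39 barcodes occurred in both experiments. Levels are UMIs per 1000000 (CPM) over the summed cells, which weigh transcripts by number and not by length. Intervals are 95%, exact, and cover counting error only. In such sums, fewer cells of a type and less RNA per cell cannot be told apart. The summed level of Ptprc, Kit and Il2ra, which define the labelled cells, was 391 to 794 CPM per hashtag in experiment 1 and 232 to 517 CPM in experiment 2. Markers of other cells were present too: the 13 genes of the myeloid list summed to 281 to 1601 CPM in experiment 1 and 222 to 12781 CPM in experiment 2, and the 10 genes of the stromal list to 2.21 to 86.6 CPM and 170.2 to 857 CPM.

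Promoter windows are shown first for 3 inhibitors. Their level was at least 1.5-fold higher in cells rich in G2/M transcripts than in cells rich in S-phase transcripts, as described further down. RefSeq windows of 300 bases (250 before to 50 after an annotated start, build GRCm38.p6) were matched for 7 of the 9 genes, 10 windows in all. Capitals mark the letters CCAAT or their reverse complement ATTGG, a motif common in promoters of G2/M genes. Cdkn2c has 2 annotated starts on the minus strand, at chr4:109666707-109667006 (first) and chr4:109665323-109665622 (second), and the UMI counts do not tell which start was used. The Cdkn2d window is chr9:21291160-21291459 on the minus strand, and the Cdkn1b window is chr6:134920151-134920450 on the plus strand.
Cdkn2c, first start: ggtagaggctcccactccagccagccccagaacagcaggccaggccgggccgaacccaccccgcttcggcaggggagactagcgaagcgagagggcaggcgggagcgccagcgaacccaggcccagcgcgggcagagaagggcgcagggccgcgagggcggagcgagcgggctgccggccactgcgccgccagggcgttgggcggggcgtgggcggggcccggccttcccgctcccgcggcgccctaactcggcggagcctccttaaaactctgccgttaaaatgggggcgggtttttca
Cdkn2c, second start: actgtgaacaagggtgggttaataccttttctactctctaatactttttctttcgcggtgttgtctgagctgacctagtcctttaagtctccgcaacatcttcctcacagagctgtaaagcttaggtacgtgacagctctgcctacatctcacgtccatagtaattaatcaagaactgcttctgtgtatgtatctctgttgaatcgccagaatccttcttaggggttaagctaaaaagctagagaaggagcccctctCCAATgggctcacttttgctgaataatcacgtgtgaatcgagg
Cdkn2d: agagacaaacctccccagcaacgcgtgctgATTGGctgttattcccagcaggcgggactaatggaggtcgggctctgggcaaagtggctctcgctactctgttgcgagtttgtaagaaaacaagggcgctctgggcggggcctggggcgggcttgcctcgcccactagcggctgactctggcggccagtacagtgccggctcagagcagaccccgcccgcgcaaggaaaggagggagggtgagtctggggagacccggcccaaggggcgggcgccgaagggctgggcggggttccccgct
Cdkn1b: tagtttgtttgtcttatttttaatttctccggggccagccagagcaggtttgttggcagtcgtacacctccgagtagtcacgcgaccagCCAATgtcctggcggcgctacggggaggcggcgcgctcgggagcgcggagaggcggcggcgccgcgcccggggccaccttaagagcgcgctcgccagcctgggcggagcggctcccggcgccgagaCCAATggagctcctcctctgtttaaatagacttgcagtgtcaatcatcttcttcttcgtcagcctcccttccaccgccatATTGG

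Searched on both strands, CCAAT had 3 matches in the Cdkn1b window, 1 in the Cdkn2d window, 1 in the second Cdkn2c window and 0 in the first. One more match was in the second window of Ccnd3, a gene with G2M-high to S-high ratios of 0.915 and 0.930. In all, 4 of the 10 windows held a match, and 37.4% of all 32851 windows did. The letters TTTGAA, the core of the cell cycle homology region of many G2/M promoters, were in 17.9% of all windows and in 0 of the 10 windows of these genes. The E2F letters TTTGGCGC or TTTCGCGC were in 0.813% of all windows and likewise in 0 of these 10. These are matches of letters, not measured binding sites.

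Among the D cyclins, Ccnd1 differed most between cultures. In experiment 1 its level in hashtags 1 to 8 was 45.6, 46.7, 24.7, 23.3, 26.1, 37.5, 14.2 and 23.0 CPM. Hashtags 1, 2 and 6 were high and hashtag 7 was low, and the ratio of highest to lowest was 3.29 (interval 2.91 to 3.72), which became 2.03 without hashtag 7. In experiment 2 Ccnd1 was at 45.3, 35.1, 39.3, 24.2, 49.6, 51.9, 19.3 and 37.4 CPM. Hashtags 4 and 7 were low there, and the ratio was 2.70 (2.42 to 3.00). Those 2 hashtags also had the highest summed level of the 11 T-lineage genes, 1990 and 1836 CPM against 267 to 845 CPM in the other 6. In experiment 1 the list summed to 545, 451, 1077, 1153, 1168, 935, 918 and 761 CPM in hashtags 1 to 8. Hashtag 7, lowest in Ccnd1 there, was not the highest in the list. The part of that list in the Ccnd1 level was not tested.

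Ccnd2, the D cyclin of many growth-stimulated lymphoid cells, gave most D-cyclin UMIs in 6 of the 8 cultures of experiment 1. Its level there was 229.6, 227, 173, 173, 247, 281, 167 and 234 CPM. Experiment 2 gave 184, 151, 234, 158, 252, 229, 139 and 145 CPM for Ccnd2. The highest-to-lowest ratio was 1.68 and 1.81, with hashtag 7 lowest in each experiment and hashtags 6 and 5 highest.

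Ccnd3 went the other way in several cultures. In experiment 1 it was at 136, 142, 189.7, 192, 161, 159, 141 and 129 CPM, so that hashtags 3 and 4, with low Ccnd2, were high. Experiment 2 had 147, 167, 147, 218, 149.7, 132, 196 and 154 CPM of Ccnd3. Hashtags 4 and 7, the pair with low Ccnd1, were the highest. The ratio of highest to lowest was 1.49 (1.42 to 1.57) and 1.65 (1.58 to 1.72).

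Because all 3 D cyclins bind the same kinases, their makeup was also given as shares of the summed D-cyclin UMIs. Ccnd3 took 33.1% to 49.5% over the hashtags of experiment 1 and 32.0% to 55.3% in experiment 2. Ccnd2 took 44.5% to 60.6% and 39.2% to 55.9%, respectively, was above Ccnd3 in all but 2 hashtags of experiment 1, and was below Ccnd3 in hashtags 2, 4, 7 and 8 of experiment 2. Ccnd1 never exceeded 12.6%. The summed D-cyclin level varied less than Ccnd1 alone, 322 to 478 CPM over the hashtags of experiment 1 and 337 to 451 CPM over those of experiment 2.

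**Figure D1:**
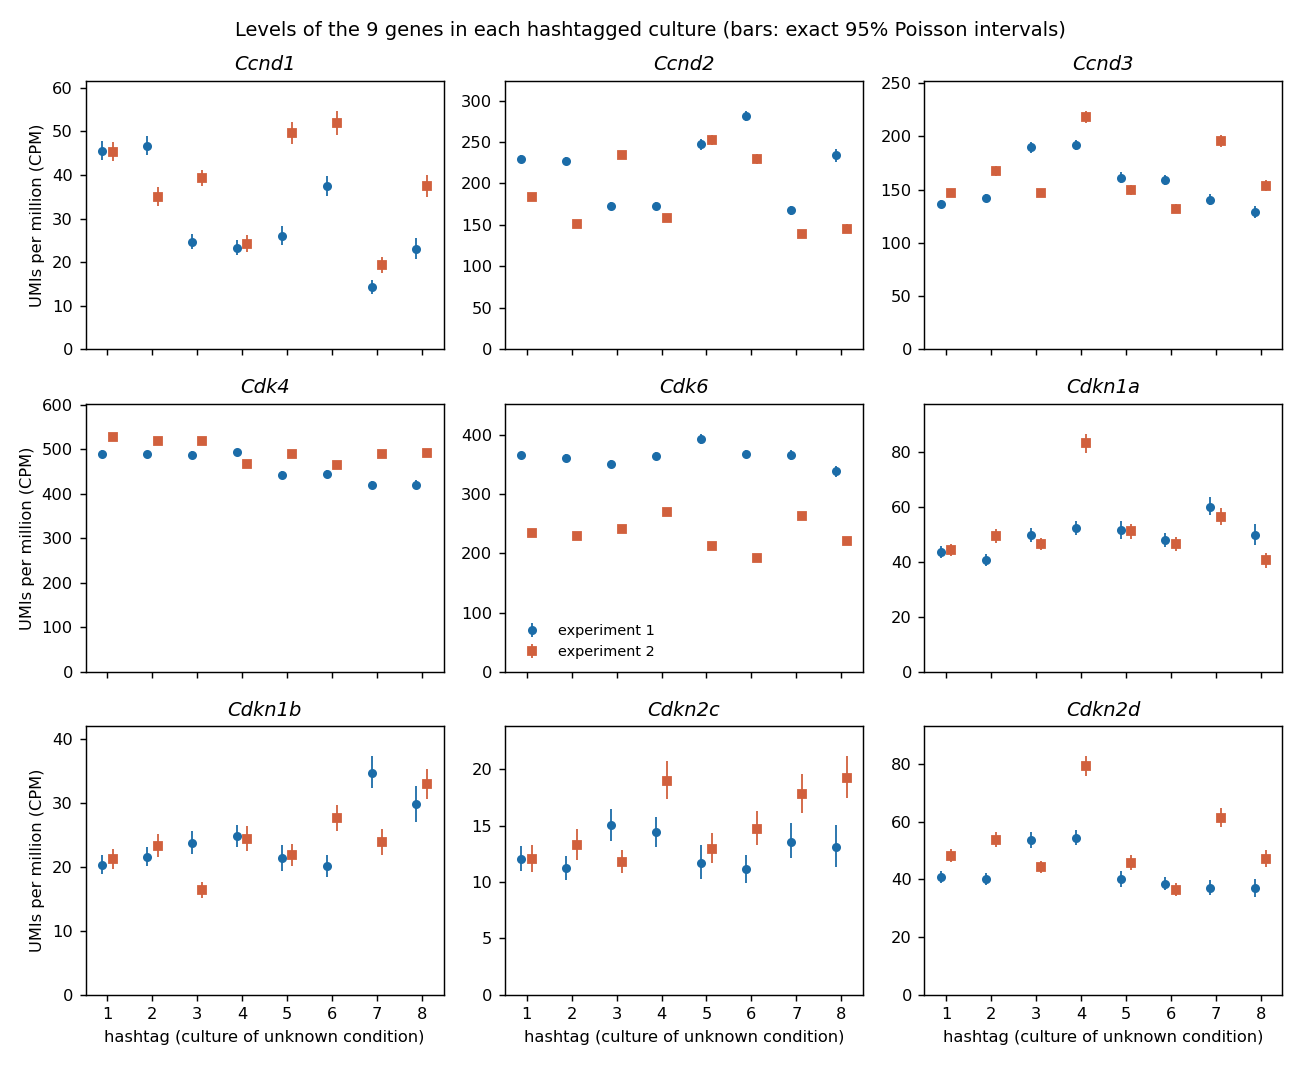
Level of each of the 9 genes (CPM, linear axes from 0) in hashtags 1 to 8 of experiment 1 (circles) and experiment 2 (squares), with exact 95% Poisson intervals. Ccnd1 runs from 14.2 to 46.7 CPM in experiment 1, Cdk4 stays between 420.1 and 527 CPM over all 16 cultures, and the Cdk6 points of experiment 2 all lie below those of experiment 1.

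Cdk4 varied little between cultures. It was at 489.9, 489, 487, 494, 443, 445, 420.1 and 420.3 CPM in hashtags 1 to 8 of experiment 1, a ratio of 1.17 (1.15 to 1.21). In experiment 2 it was at 527, 519, 519, 467, 488, 464, 489 and 490.5 CPM, a ratio of 1.14 (1.11 to 1.16). Of all genes tested, 23.1% had a smaller ratio than Cdk4 in experiment 1 and 6.91% in experiment 2.

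Cdk6 was at 365, 361, 351, 364, 393, 368, 366 and 338 CPM in experiment 1, with a ratio of 1.16 (1.12 to 1.21). Experiment 2 gave 234, 229, 241, 269.5, 212, 192, 263 and 221 CPM, with a ratio of 1.40 (1.35 to 1.45). A smaller ratio than that of Cdk6 was found for 19.6% of all genes tested in experiment 1 and for 60.1% in experiment 2. Hashtags 4 and 7 were again at one end, this time the high one. No Cdk6 value of experiment 2 reached the lowest value of experiment 1.

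Of the CIP/KIP inhibitors, Cdkn1a is the classical p53 target that halts the cycle after DNA damage and also marks cells leaving it. Its level in experiment 1 was 43.6, 40.8, 49.7, 52.3, 51.7, 48.1, 60.3 and 50.0 CPM, a ratio of 1.48 (1.37 to 1.59). In experiment 2 hashtag 4 stood above the rest, with 83.3 CPM against 44.3, 49.4, 46.6, 51.2, 46.5, 56.5 and 40.6 CPM in hashtags 1 to 3 and 5 to 8. The ratio was 2.05 (1.90 to 2.22) and became 1.39 without hashtag 4.

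Cdkn1b restrains cyclin E and cyclin A kinases and holds resting lymphocytes out of the cycle. It was at 20.4, 21.6, 23.7, 24.8, 21.4, 20.1, 34.8 and 29.8 CPM in experiment 1, with hashtags 7 and 8 above the other 6. These 2 hashtags also had the largest shares of cells low in both S-phase and G2/M transcripts, 42.2% and 33.1%, against 12.2% to 20.3% in the others. In experiment 2 Cdkn1b was at 21.2, 23.3, 16.4, 24.4, 21.9, 27.6, 23.8 and 32.9 CPM. Hashtag 8 was high and hashtag 3 low, for a ratio of 2.01 (1.81 to 2.23). Cells low in both sets of transcripts were 22.7% of hashtag 8, within the 14.7% to 29.8% over the 8 hashtags. The part of these cells in the Cdkn1b level was not tested in either experiment.

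Of the INK4 inhibitors, Cdkn2c had the fewest UMIs of all 9 genes, 2814 in experiment 1 and 3402 in experiment 2. It gave 12.0, 11.2, 15.1, 14.4, 11.7, 11.1, 13.6 and 13.1 CPM in experiment 1, with a ratio of 1.35 (1.17 to 1.57). In experiment 2 it gave 12.0, 13.3, 11.8, 19.0, 12.9, 14.7, 17.8 and 19.3 CPM, a ratio of 1.63 (1.43 to 1.86), with hashtags 4, 7 and 8 above the other 5.

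Cdkn2d was at 40.7, 40.2, 53.7, 54.4, 40.1, 38.5, 37.1 and 37.0 CPM in experiment 1. Hashtags 3 and 4, which were highest in Ccnd3, were highest in Cdkn2d too, and the ratio was 1.47 (1.33 to 1.62). In experiment 2 it was at 48.3, 53.8, 44.4, 79.3, 45.8, 36.5, 61.5 and 47.1 CPM, a ratio of 2.17 (2.01 to 2.35). Hashtags 4 and 7 were again the highest in both genes.

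Counted together, 1 of 9 genes (Ccnd1) had a ratio of 2 or more between the highest and lowest culture in experiment 1, where 8.33% of all genes tested did. In experiment 2 it was 4 of 9 (Ccnd1, Cdkn1a, Cdkn1b and Cdkn2d), where 13.8% of all genes tested did. The median ratio of the 9 genes was 1.48 and 1.81, beside 1.28 and 1.34 over all genes tested. Apart from Ccnd1, the calls of experiment 2 lay close to the limit: with TMM scaling or DESeq2 size factors the ratio was 1.92 or 1.89 for Cdkn1a and 1.95 or 1.98 for Cdkn1b, and 2.02 or 2.01 for Cdkn2d. Without the cells set apart by markers of other types, the ratio in experiment 2 was 5.09 for Ccnd1 and 3.63 for Cdkn1a. Without hashtag 4 the ratio of Cdkn2d was 1.69 and without hashtag 6 it was 1.79. Cdkn1b gave 1.69 without hashtag 8 and 1.55 without hashtag 3, and Cdkn1a gave 1.88 without hashtag 8.

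The cells were next split by the stage of T-lineage commitment, using UMIs of Kit (the stem-cell factor receptor of early progenitors), Il2ra (CD25, switched on at the DN2 stage) and Bcl11b (the factor that accompanies commitment). Cells rich in markers of another cell type were first set apart. Of the remaining cells, 1486 and 1023 in experiments 1 and 2 had Kit without Il2ra or Bcl11b (the Kit-only gate). Kit and Il2ra without Bcl11b were found in 2155 and 717 cells, and at least 1 Bcl11b UMI in 905 and 1295 cells. These gates are ranges of marker counts, not cell types, and depend on depth: median UMIs per cell were 24285.5, 25224 and 21170 in the 3 gates of experiment 1 and 26350, 28145 and 19271 in experiment 2. The median count of the 11 T-lineage genes, which include Il2ra and Bcl11b, was 5, 21 and 40 UMIs per cell in experiment 1 and 4, 20 and 47 UMIs in experiment 2.

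Ccnd1 fell steeply across these gates. Experiment 1 had 54.6 CPM in Kit-only cells, 18.9 CPM in cells with Kit and Il2ra and 8.06 CPM in Bcl11b cells, and experiment 2 had 44.4, 16.8 and 4.40 CPM. The Bcl11b gate was 6.78-fold lower than the Kit-only gate (5.76 to 8.01) in experiment 1 and 10.1-fold lower (8.34 to 12.3) in experiment 2. It was lower in 8 of 8 hashtags of each experiment.

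Per hashtag, Ccnd1 in the Kit-only gate of experiment 1 was 65.0, 62.7, 42.4, 42.2, 63.9, 69.0, 36.2 and 44.6 CPM. In the Bcl11b gate it was 13.1, 33.1, 11.9, 7.81, 1.04, 3.38, 0.490 and 0 CPM. The groups of values did not overlap. How many of all genes separate in this way between these gates, in either experiment, was not counted. Hashtag 2 was the highest of the Bcl11b gate, with 37 UMIs in 37 cells, and hashtag 8 had 0 UMIs in 33 cells, whose interval reaches 5.80 CPM.

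In experiment 2 the Kit-only gate had 45.9, 32.3, 36.1, 40.4, 51.0, 55.9, 29.4 and 58.8 CPM of Ccnd1, and the Bcl11b gate had 11.6, 9.74, 6.07, 3.72, 5.68, 7.29, 2.58 and 2.28 CPM. These values did not overlap either. Hashtags 4 and 7, low in Ccnd1 as whole cultures, had 40.4 and 29.4 CPM inside the Kit-only gate, where hashtag 4 lay among the others and hashtag 7 was the lowest. They had 34.4% and 40.4% of their cells in the Bcl11b gate, against 2.22% to 15.4% in the other 6 hashtags. In experiment 1 this share ran from 3.09% to 17.6%, with hashtag 7, lowest in Ccnd1 there, at 10.3%. When each cell was thinned to 5000 UMIs before the gates were drawn, the Ccnd1 level of the Bcl11b gate was 2.34 and 1.39 CPM and its ratio to the Kit-only gate 0.0646 and 0.0434, against 0.148 and 0.0991 unthinned. These thinned levels are too low to compare with each other.

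The middle gate also differed between cultures. Ccnd1 in cells with Kit and Il2ra of experiment 1 was at 27.2, 26.8, 15.8, 18.9, 15.9 and 19.6 CPM in hashtags 1 to 6, but at 4.70 and 4.09 CPM in hashtags 7 and 8. The highest-to-lowest ratio was 6.65 (3.83 to 12.7). In experiment 2 the same gate ranged from 13.5 to 24.2 CPM, a ratio of 1.79 whose interval (0.981 to 3.28) includes 1.

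**Figure D2:**
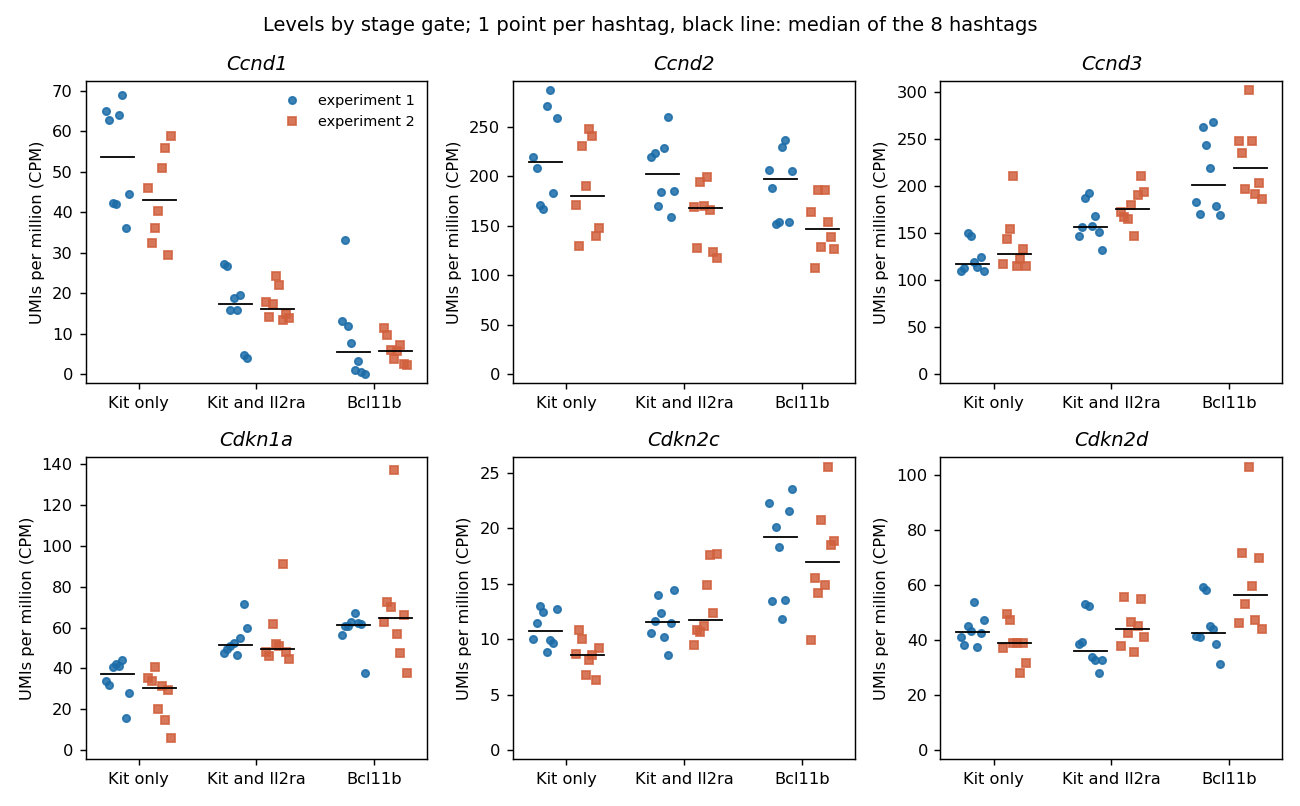
Level (CPM) of 6 of the genes in the Kit-only, Kit and Il2ra, and Bcl11b gates; each point is 1 hashtag of experiment 1 (circles) or experiment 2 (squares), and the black line is the median of the 8 hashtags. Ccnd1 points of the Bcl11b gate lie at or below 33.1 CPM and those of the Kit-only gate at or above 29.4 CPM; within each experiment they do not overlap, while Ccnd3, Cdkn1a and Cdkn2c are higher in the Bcl11b gate in every hashtag.

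Ccnd3 rose over the same gates, from 124 CPM in Kit-only cells through 163 CPM to 231 CPM in Bcl11b cells of experiment 1, and from 130.4 through 177 to 231 CPM in experiment 2. The ratio of Bcl11b to Kit-only cells was 1.86 (1.79 to 1.94) and 1.77 (1.70 to 1.85), above 1 in 8 of 8 hashtags in each. Ccnd2 differed less, with ratios of 0.871 and 0.777, below 1 in 8 of 8 hashtags of each experiment. As a share of D-cyclin UMIs, Ccnd3 went from 32.0% to 54.9% in experiment 1 and from 36.8% to 61.6% in experiment 2, and Ccnd1 from 14.1% to 1.92% and from 12.5% to 1.17%. The summed D-cyclin level in the Kit-only and Bcl11b gates was 387 and 420.0 CPM in experiment 1 and 354 and 375 CPM in experiment 2.

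**Figure D3:**
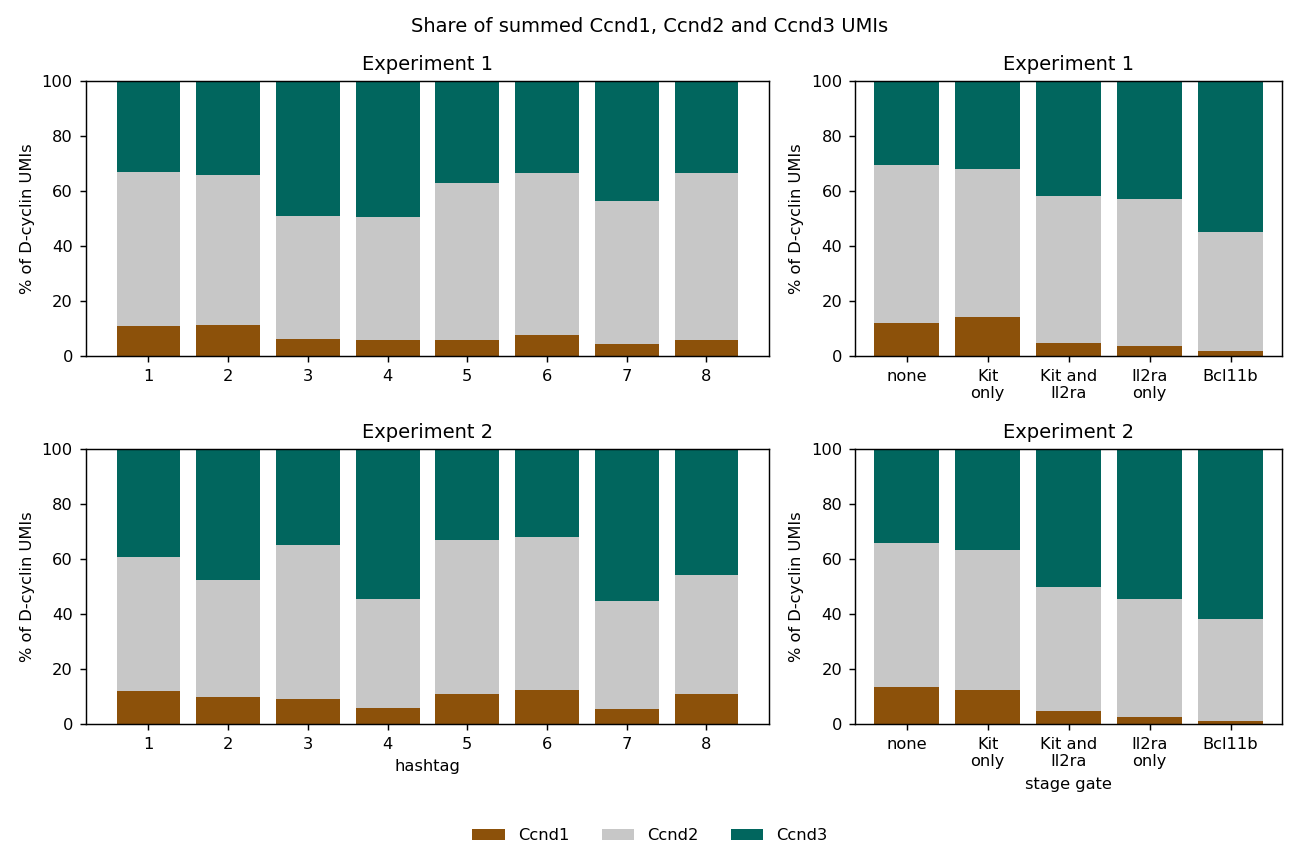
Percent of the summed Ccnd1, Ccnd2 and Ccnd3 UMIs that each gene takes (stacked to 100%), by hashtag (left) and by stage gate (right), with experiment 1 above experiment 2; the gate called none has no UMI of Kit, Il2ra or Bcl11b. The Ccnd3 share is 32.0% and 36.8% in the Kit-only gate and 54.9% and 61.6% in the Bcl11b gate.

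The other genes at least 1.5-fold higher in Bcl11b than in Kit-only cells were inhibitors. Cdkn1a had 34.6 CPM in Kit-only and 61.4 CPM in Bcl11b cells of experiment 1, which is 1.77-fold (1.64 to 1.92). The same gates of experiment 2 had 28.2 and 79.5 CPM, which is 2.83-fold (2.60 to 3.07), and the Bcl11b gate was higher in 8 of 8 hashtags each time. Thinned to 5000 UMIs, the ratio for Cdkn1a in experiment 1 was 1.39, short of the limit of 1.5. Within the Kit-only gate Cdkn1a was at only 5.91 CPM in hashtag 8 and 15.0 CPM in hashtag 6 of experiment 2, and at 15.9 CPM in hashtag 7 of experiment 1, while its highest values there were 41.0 and 44.1 CPM. Hashtag 4 of experiment 2 was far above the rest in the Bcl11b gate, with 137 CPM against 37.6 to 72.5 CPM, but had 20.2 CPM, from 15 UMIs, in the Kit-only gate.

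Cdkn2c was 1.59-fold (1.37 to 1.84) and 1.98-fold (1.70 to 2.32) higher in Bcl11b than in Kit-only cells, in 8 of 8 hashtags of each experiment. Some hashtags of experiment 2 had few Cdkn2c UMIs: 5 and 6 in the Kit-only gate of hashtags 4 and 7, and 6 in the Bcl11b gate of hashtag 1. Cdkn2d had a ratio of 1.18 in experiment 1, above 1 in 5 of 8 hashtags, and of 1.81 (1.68 to 1.96) in experiment 2, above 1 in 8 of 8. Cdkn1b had ratios of 0.940 and 1.12, with intervals of 0.839 to 1.05 and 1.01 to 1.26. Cdk4 had ratios of 0.923 and 0.907, and Cdk6 of 1.09 and 1.24.

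At the limit of 1.5-fold, 3 of 9 genes were higher and 1 lower in the Bcl11b gate of experiment 1, where 4.64% and 3.38% of all genes tested were. In experiment 2, 4 were higher and 1 lower, where 7.28% and 4.37% of all genes tested were. This comparison was chosen after the data were seen. The share of cells in the upper 25% by G2/M transcripts moved with it: 23.7% of Kit-only and 31.6% of Bcl11b cells in experiment 1, and 23.8% and 33.7% in experiment 2. The part of these shares in the differences was not tested.

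Cells set apart by markers of other types gave further contrasts. The stromal list, led by Cxcl12 and collagen genes, set apart 4 cells in experiment 1 and 33 in experiment 2, in which Ccnd1 was at 209.6 CPM (139 to 303) and 100.5 CPM. The 7 and 67 cells of the B list had Ccnd3 at 595 and 466 CPM, and the latter had Cdkn2d at 142 CPM and Cdkn2c at 44.7 CPM. The 143 and 312 cells of the NK list had Ccnd1 at 3.12 and 3.86 CPM and, in experiment 2, Cdk6 at 132 CPM and Cdkn2d at 99.5 CPM. In the cells of the myeloid list (728 and 966) and of the dendritic list (557 and 1044, led by MHC class II genes) Ccnd1 was at 65.3 and 47.2 CPM and at 50.5 and 64.7 CPM. The mast and basophil list selected 1134 and 825 cells mainly through Cpa3 (85.1% and 68.6% of its UMIs) that also had medians of 32.5 and 34 UMIs of the T-lineage list; in these, Ccnd1 was at 8.49 and 5.64 CPM and Ccnd3 at 187 and 198 CPM.

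The phase of the cycle was read from 2 standard lists, 39 S-phase and 51 G2/M genes, none of which is among the 9. G2M-high cells are the upper 25% of an experiment by the share of UMIs in the G2/M list, S-high cells the upper 25% of the rest by the S list, and cycle-low cells those below the median of both. The groups held 2200, 1650 and 1826 cells in experiment 1 and 2084, 1563 and 1823 cells in experiment 2. They are ranges of a continuous score: 910 and 868 cells lay within 10% of the G2/M limit and 2123 and 1750 within 10% of the S limit. Cycle-low cells were also shallower, with medians of 15924 and 16150 UMIs against 31241 and 31827 in G2M-high cells.

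Both INK4 genes rose with the cycle. Cdkn2c was at 5.17 CPM in cycle-low, 12.1 CPM in S-high and 20.7 CPM in G2M-high cells of experiment 1, a G2M-high to cycle-low ratio of 4.01 (3.39 to 4.76). In experiment 2 it was at 10.5, 13.8 and 23.0 CPM, a ratio of 2.19 (1.96 to 2.46), which was 4.21 without the cells set apart by markers and 3.44 as a mean over cells. Cdkn2d was at 28.9, 37.5 and 66.0 CPM in the same groups of experiment 1 and at 28.5, 42.4 and 82.8 CPM in those of experiment 2, with ratios of 2.28 (2.12 to 2.46) and 2.90 (2.72 to 3.11). Each gene was higher in G2M-high than in cycle-low cells in 8 of 8 hashtags of each experiment. Within the Kit-only, Kit and Il2ra, and Bcl11b gates the ratio was 2.94, 3.58 and 5.10 for Cdkn2c and 2.26, 2.43 and 2.51 for Cdkn2d in experiment 1. Experiment 2 gave 11.1 (4.65 to 34.9), 2.90 and 4.37 for Cdkn2c and 1.99, 2.72 and 2.10 for Cdkn2d. No minimum of UMIs was set for these ratios within gates, and the ratio of 11.1 rests on few UMIs, as its wide interval shows.

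The CIP/KIP genes behaved differently from these and from each other. Cdkn1a was highest in cycle-low cells, at 64.5 CPM against 46.8 in S-high and 43.3 in G2M-high cells of experiment 1, and at 84.9 against 50.7 and 46.0 CPM in experiment 2. Its G2M-high to cycle-low ratio was 0.672 and 0.542, above 1 in 0 of 8 hashtags in each experiment. Within the Kit-only, Kit and Il2ra, and Bcl11b gates it was 0.555, 0.775 and 0.701 in experiment 1 and 0.610, 0.938 (0.762 to 1.16) and 0.691 in experiment 2. Cdkn1b was at 18.9 and 17.4 CPM in S-high cells, and about as low, at 19.1 and 17.6 CPM, in the cells outside the 3 groups. It was higher in cycle-low cells, with 27.5 and 32.2 CPM, and in G2M-high cells, with 30.6 and 29.1 CPM. Its S-high to cycle-low ratio was above 1 in 2 of 8 hashtags of experiment 1 and in 0 of 8 of experiment 2. Its G2M-high to cycle-low ratio was 1.11 and 0.905, above 1 in 8 of 8 and 3 of 8 hashtags. The cycle-low level of experiment 1 ran from 13.4 to 45.0 CPM over the hashtags, with a median of 20.8 CPM, below the pooled 27.5 CPM. The G2M-high to S-high ratio, a comparison added after the data were seen, was 1.62 and 1.67 for Cdkn1b, 1.71 and 1.66 for Cdkn2c and 1.76 and 1.95 for Cdkn2d, above 1 in 8 of 8 hashtags for each gene and experiment. These are the 3 genes whose promoter windows are printed above. Cdk6 was also above 1 in 8 of 8 hashtags of each experiment, with smaller ratios of 1.08 and 1.08. The remaining genes had pooled ratios below 1 in both experiments. The interval included 1 for Ccnd1 (0.886 to 1.02 and 0.892 to 1.02) and for Ccnd2 in experiment 2 (0.951 to 1.01). Ccnd1 was above 1 in 5 of 8 hashtags of experiment 2. The share of all genes at least 1.5-fold higher in this comparison was not computed.

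**Figure D4:**
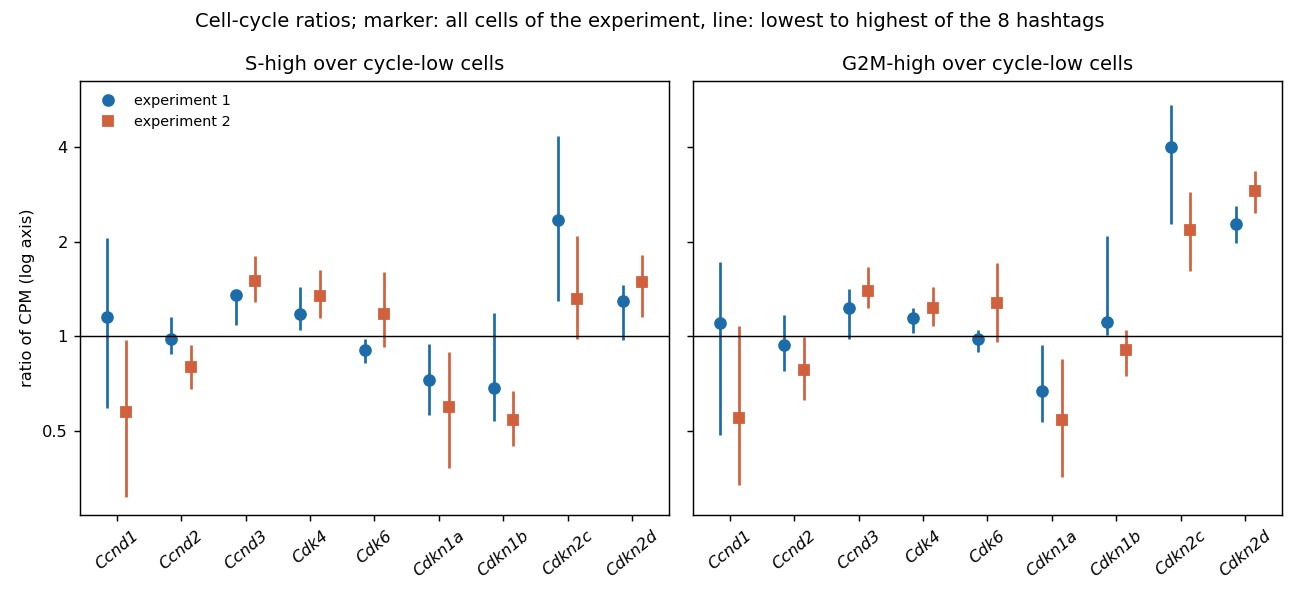
Ratio of CPM in S-high (left) and G2M-high (right) cells to cycle-low cells for each gene (log axis); the marker is the ratio over all cells of experiment 1 (circles) or experiment 2 (squares), and the line runs from the lowest to the highest of the 8 hashtags. Cdkn2c and Cdkn2d lie above 1 in every hashtag on the right, and Cdkn1a lies below 1 in every hashtag on both sides. The long Ccnd1 lines cross 1 on both sides in experiment 1 and on the right in experiment 2.

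Ccnd3 was highest in S-high cells, at 177 and 186 CPM against 131 and 123 CPM in cycle-low cells, with ratios of 1.35 (1.30 to 1.40) and 1.51 (1.45 to 1.56), above 1 in 8 of 8 hashtags in each. Cdk4 was modestly higher in S-high cells, by ratios of 1.17 and 1.34, again in 8 of 8 hashtags. Cdk6 had ratios of 0.906 and 1.18. Ccnd2 had 0.978 and 0.801.

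Ccnd1 gave no single direction along the cycle. Its G2M-high to cycle-low ratio was 1.10 (1.01 to 1.20) in experiment 1, whereas experiment 2 gave 0.549 (0.516 to 0.584). The latter became 1.21 when the cells set apart by markers were left out. Within the stage gates of experiment 2 it was 1.16 (0.951 to 1.43) in Kit-only cells, 2.68 (1.62 to 4.74) in cells with Kit and Il2ra and 2.21 (0.927 to 6.40) in Bcl11b cells. In experiment 2, the share of cells that were cycle-low was 81.8% of the 33 stromal-list, 29.7% of the dendritic-list and 11.4% of the myeloid-list cells, with Ccnd1 at 100.5, 64.7 and 47.2 CPM. Of the 921 cells past the minimum of several lists, 31.6% were cycle-low, with Ccnd1 at 74.9 CPM. The part of these cells in the ratio was not tested.

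For G2M-high against cycle-low cells, 2 of 9 genes were at least 1.5-fold higher and 0 lower in experiment 1, where 6.1% and 3.18% of all genes tested were. Experiment 2 had 2 higher (Cdkn2c and Cdkn2d) and 2 lower (Ccnd1 and Cdkn1a), where 8.22% and 8.69% of all genes tested were. For S-high against cycle-low cells, 1 gene (Cdkn2c) was higher and 0 lower in experiment 1, beside 6.75% and 4.72% of all genes tested. In experiment 2, 1 (Ccnd3) was higher and 3 (Ccnd1, Cdkn1a and Cdkn1b) lower, beside 11.7% and 11.8%. Without the cells set apart by markers the counts of experiment 2 were 2 of 9 in each comparison. For G2M-high cells, Ccnd1 (1.21) and Cdkn1a (0.735) were then short of the limit. For S-high cells, Ccnd1 (1.29), Ccnd3 (1.31) and Cdkn1b (0.770) were short of it, and Cdkn2c passed it, with 2.43 against 1.32 in all cells.

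Between the experiments, Cdk6 alone among the 9 differed by more than 1.5-fold. Summed over hashtagged cells its level was 364 CPM in the first and 233 CPM in the second, or 0.640-fold (0.633 to 0.647). The range over hashtags was 338 to 393 CPM in experiment 1 and 192 to 269.5 CPM in experiment 2. These ranges did not overlap, whereas those of the other 8 genes did. The share of all genes whose ranges do not overlap was not computed, so how unusual this is was not tested. Of all genes tested, 7.15% were at least 1.5-fold lower and 2.48% at least 1.5-fold higher in experiment 2. The ratio was 0.674 with TMM scaling, 0.673 with DESeq2 size factors and 0.722 without the cells set apart by markers, all short of the limit. Cdk6 was at 361 and 249 CPM in the Kit-only gate, 380 and 268 CPM in the Kit and Il2ra gate and 392 and 310.4 CPM in the Bcl11b gate of experiments 1 and 2. The labels give 4 to 5 days of culture for experiment 1 and 4 to 8 days for experiment 2; with 1 library each, time, cell makeup and library cannot be told apart.

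At the level of single cells, detection of the D cyclins depended on depth. After each cell was thinned to 5000 UMIs, 17.3% of 8602 cells of experiment 1 had a UMI of no D cyclin, 45.5% of 1, 33.4% of 2 and 3.89% of all 3. The same shares were 19.0%, 46.9%, 30.6% and 3.58% of 8150 cells in experiment 2. A cell without a UMI at this depth may still express the gene, so these shares do not show how many D cyclins a cell expressed. Over the hashtags, thinned shares of cells with a UMI ran from 4.97% to 18.9% for Ccnd1, 48.9% to 71.4% for Ccnd2 and 43.7% to 61.4% for Ccnd3 in experiment 1, and from 6.10% to 18.3%, 42.5% to 66.3% and 49.5% to 62.3% in experiment 2. Unthinned, these ranges were 11.6% to 48.1%, 78.7% to 97.8% and 83.5% to 94.9% in experiment 1.

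Other genes of the G1/S step were read from a list of 28 (Rb family, E2F and DP factors, cyclins E and A, Cdk2, Cdk-activating kinase, other inhibitors, Myc and Mycn). In experiment 1, 23 had enough UMIs and 2 of them differed 2-fold or more between cultures, where 8.33% of all genes tested did. In experiment 2 it was 3 of 21, where 13.8% of all genes tested did. These counts do not set the list apart. The median ratio of the list was 1.29 and 1.31, close to the 1.28 and 1.34 over all genes tested. Mycn, a growth-promoting transcription factor, spanned 11.2 to 55.3 CPM in experiment 1, a ratio of 4.95, and 2.62 to 35.9 CPM in experiment 2, a ratio of 13.7, whereas Myc had 1.55 and 1.48. E2f2, an activating E2F, had ratios of 2.40 and 2.53 with highest values of 17.1 and 18.7 CPM, and Tfdp2, a DP partner, had 2.00 in experiment 2.

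Low genes of the list with at least 10 UMIs in the lowest hashtag also passed the ratio of 2, though below the mean level tested. No share of all genes was computed at that level, where counting error is larger. Cdkn1c, the third CIP/KIP inhibitor, was at 0.354 to 2.66 CPM in experiment 1 and 0.321 to 3.82 CPM in experiment 2. The ratios were 7.50 (3.81 to 16.4) and 11.9 (6.32 to 24.7), from only 10 and 11 UMIs in the lowest hashtag. Cdkn2a, the INK4 and Arf locus that restrains long-term growth, ran from 0.292 to 4.58 CPM in experiment 2, with hashtag 8 highest, and was at or below 0.293 CPM in experiment 1. E2f5 had ratios of 2.03 and 2.20, and E2f7, a repressive E2F, 3.07 in experiment 1.

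For p53 and its targets, a list of 12 that does not include Cdkn1a, 5 had enough UMIs in each experiment. Of these, 0 and 1 had a ratio of at least 2, beside 8.33% and 13.8% of all genes tested, and the median was 1.32 and 1.40. Trp53 itself varied by 1.19 and 1.15. In experiment 2, Cdkn1a was highest in hashtag 4, as were 4 of the 10 list genes with at least 10 UMIs in their lowest hashtag: Ccng1 (15.5 to 31.2 CPM), Bbc3 (2.85 to 9.07 CPM), Zmat3 (1.45 to 4.74 CPM) and Trp53inp1 (3.56 to 11.0 CPM), whereas Phlda3 and Sesn2 peaked in hashtag 2, Trp53 and Aen in hashtag 3, Bax in hashtag 6 and Mdm2 in hashtag 8. In experiment 1, Cdkn1a was highest in hashtag 7, as were 5 of 10: Mdm2, with a ratio of 1.34, and the low targets Bbc3, Phlda3, Zmat3 and Trp53inp1, with ratios of 2.04, 2.06, 3.00 and 3.29. Trp53 and Aen were lowest in that hashtag, and Bax peaked in hashtag 2, Ccng1 in hashtag 8 and Sesn2 in hashtag 4. The share of all genes that peaked in these hashtags was not computed, so the counts do not set this list apart. Genes outside it, such as Ccnd3, Cdk6, Cdkn2d, E2f2 and Tfdp2, also peaked in hashtag 4 of experiment 2, while others peaked elsewhere.

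Across the 16 hashtags, centred within each experiment, the genes most like each of the 9 in log2(CPM + 1) were found among 4964 genes of at least 20 CPM. Ccnd3 was most like Fgfr1op2 (Pearson r = 0.97), Xrn1 and Grk6, and Cdkn2d most like Anp32e (0.96), Cep57 and Chd9. Ccnd1 was most like Baz1a (0.93), Nars and Tmem97; Ccnd2 like Larp1 (0.93), Slc25a12 and Nampt. Cdk4 was most like Gm8186 (0.93), Luc7l and Snrpg, and Cdk6 like Rp9 (0.88), Clspn and Nsd2. The inhibitors Cdkn1a, Cdkn1b and Cdkn2c were most like N6amt1 (0.93), Rbbp6 and Zfp644; Mpnd (0.93), Clk1 and Mob4; and Sept7 (0.90), Nck1 and Stk4, Cdkn2c itself being below the level required of its partners. Among the 9, Ccnd3 and Cdkn2d had r = 0.93 (0.88 and 0.98 in the experiments), Ccnd1 and Ccnd2 had 0.68, and Ccnd1 and Cdkn1a had -0.70. These hashtags share a library and depth within an experiment and may differ in cell makeup, and the correlations are descriptions.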

How the data were processed

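The deposited mRNA matrices hold whole UMI counts per gene and barcode, from software version 3.0.0 per the file headers; the submitters' processing notes name Cell Ranger 3.0.0 and GRCm38, without giving roles. The deposited hashtag tables are whole counts per barcode for 8 tags, read or UMI not given in the sources used here. The gene and barcode lists hold names only. Cells needed at least 500 genes and under 10% mitochondrial UMIs, with the top tag at 50 or more counts and at least 3 times the second, which leaves out barcodes with a strong second tag but not doublets within a culture; no doublet caller was run. UMIs were summed per hashtag and scaled to 1e6. Ratios needed 10 UMIs in the lower group, except cycle ratios within gates or hashtags and the counts of hashtags above 1, which had no minimum. The background held genes of at least 10 CPM on average. No test between conditions was made, because each experiment is 1 library and tags carry no condition; Dixon's test was applied to the values of 8 hashtags. Named genes were the 9, list genes with a ratio of at least 2, and the 3 most like each; where others are named (Trp53, Myc, Mdm2, Bax, Aen, Sesn2), they were chosen after their values were seen. The marker gates needed 20 (stromal, myeloid, dendritic), 10 (mast and basophil, B) or 5 (NK) UMIs of the list. The members and lists were chosen with earlier results of these data known. The hashtag ratios and the intervals were tested on simulated data. Python 3.11.15, numpy 2.4.6, scipy 1.17.1, pandas 2.3.3, matplotlib 3.10.9 and, for scaling alternatives, edgeR 4.0.16 and DESeq2 1.42.0 in R 4.3.3 were used.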

Additional observations from a re-analysis of the deposited data

Results flagged for a closer look

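Of 24 sets of 8 hashtag values examined, 1 had a sample far from the others: Cdkn1a in hashtag 4 of experiment 2, at 83.3 CPM with the next hashtag at 56.5 CPM. The gap took up 0.628 of the range, above the 95% limit of Dixon's test, which chance passes in about 1 in 20 sets. That hashtag had 34.4% of its cells in the Bcl11b gate and 26.7% in the cycle-low group. Hashtag 7 had 40.4% in the Bcl11b gate with Cdkn1a at 56.5 CPM, and hashtag 6 had 29.8% in the cycle-low group with Cdkn1a at 46.5 CPM.

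Barcodes that passed the cell filter but whose top tag was below the minimum entered no comparison. There were 39 in experiment 1 and 638 in experiment 2, with 13809 and 6794 CPM of the stromal list. In those of experiment 1, Ccnd1 was at 175 CPM, Ccnd2 at 328 CPM, Cdkn1a at 135 CPM, Cdkn1b at 58.3 CPM and Cdkn2c at 40.3 CPM, each with an interval above the highest hashtag (46.7, 281, 60.3, 34.8 and 15.1 CPM). In those of experiment 2, Ccnd1 at 93.6 CPM, Cdkn1b at 42.7 CPM and Cdkn2c at 26.1 CPM were above the highest hashtag (51.9, 32.9 and 19.3 CPM). Cdk4 (343 and 416 CPM) and Cdk6 (100.0 and 124 CPM) were below the lowest hashtag in both, and Ccnd3 was at 33.3 CPM against 129 CPM in experiment 1. The part of stromal cells in these levels was not tested.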

How the results depend on the processing

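The counts of genes past a limit kept within 1.5 times of their value in 114 of 131 alternatives. These include leaving out the minimum of UMIs, which could not change the count. The number with a hashtag ratio of at least 2 went from 1 to 2 in experiment 1 when cells were thinned to 5000 UMIs, and in experiment 2 from 4 to 2 with TMM scaling or DESeq2 size factors, to 1 without hashtags 4 and 7 (chosen after seeing the data; leaving out hashtags can only keep or lower this ratio), and to between 2 and 4 with each hashtag left out in turn. In experiment 2 the number with a hashtag ratio of at least 2 was 5 when thinned or without the cells set apart by markers. It was 3 with a stricter or looser tag call or a stricter cell filter. The number differing between the experiments went from 1 to 0 with TMM scaling, with DESeq2 size factors and without the cells set apart by markers. For S-high against cycle-low cells of experiment 1 it went from 1 to 2 with a wider limit for both groups, without those cells or as a mean over cells, to 3 when thinned, and ranged from 1 to 2 with a hashtag left out. In experiment 2 the count without those cells was 2 for both cycle comparisons, against 4. Ccnd1 reversed there, to 1.21 for G2M-high and 1.29 for S-high over cycle-low. The 3 ratios of single genes that thinning moved by over 1.5 times were Cdkn2c over the cycle in experiment 2 (3.39) and Ccnd1 between gates (0.0646 and 0.0434). The cause was not tested. No paired analysis was possible because no hashtag could be tied to a condition and no test was made. Depth limits Cdkn2c, with 190 to 504 UMIs per hashtag, and Ccnd1 in Bcl11b cells, with 0 to 57.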
